A study of Homo sapiens with 8 samples.

Results

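A set of 9 genes that androgen is known to induce, or that mark apocrine breast epithelium, was followed in SKBR3 control and FOXA1 knockdown cells: FKBP5, TMPRSS2, ALOX15B, HPGD, DHRS2, ACSM1, SORD, GGT1 and UGT2B28. The set, and the gene lists used below, were chosen with earlier results of these data known, so their counts are descriptive. Its rows were picked by symbol, as those of the count table whose symbol column held a listed name. This found 8 of the 9 symbols in 9 of 30434 rows, because GGT1 is listed under 2 identifiers. UGT2B28 was not analysed here. SKBR3 is a human breast cancer line with amplified ERBB2 (HER2). RNA sequencing gave 8 libraries. The 4 control libraries are labelled WT. The 4 FOXA1 knockdown libraries came from a stable line that had received lentiviral short hairpin RNAs against FOXA1. The labels do not say which hairpin each library carried, whether the controls received a vector, or whether replicates were separate cultures, so p-values measure only the spread between these samples, which may be technical. Both groups grew in medium with fetal bovine serum, and the labels name no added androgen or glucocorticoid.

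Steroid receptors bind DNA once they have bound their hormone, and FOXA1 is a pioneer factor that opens chromatin at many of their sites. Apocrine breast epithelium and apocrine tumours are known for their response to androgen and for enzymes of lipid, prostaglandin and steroid metabolism. The glucocorticoid receptor (NR3C1) recognises nearly the same DNA element through which androgen acts, and FKBP5 is a classic target of both hormones.

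Library totals ran from 19087878 to 23786684 counts. Levels are given as CPM, counts per 1000000 after TMM scaling of the libraries, and 3 counts, the floor used for detection, were between 0.123 and 0.153 CPM. FOXA1 itself had 4071 to 4397 counts in control and 83 to 92 in knockdown. The epithelial markers KRT8, KRT18, KRT19, KRT7, EPCAM, ERBB2 and TFAP2C were all detected in both groups. Their summed level was 18630 to 20710 CPM in control and 11780 to 12680 CPM in knockdown. ERBB2 fell from 7308 to 1340 CPM, KRT19 from 2645 to 723, KRT7 from 2202 to 637 and TFAP2C from 337 to 299 CPM. The others rose, KRT8 from 4519 to 5619 CPM, KRT18 from 2312 to 3457 CPM and EPCAM from 179 to 226 CPM. Of the markers of other cell types, the 4 of leukocytes with a row summed to 5.31 to 6.89 CPM in control and 1.34 to 2.42 CPM in knockdown, where CD68 fell from 4.94 to 0.589 CPM and CD14 rose from 0.181 to 0.533 CPM, and PTPRC was at the floor in every library. The 3 of endothelium summed to 20.7 to 22.1 and 19.7 to 22.5 CPM. Within that sum VWF fell from 5.22 to 0.845 CPM and CDH5 rose from 16.1 to 20.1 CPM, while PECAM1 had 0 to 6 counts per library. The 4 of fibroblasts with a row summed to 5.22 to 6.98 and 6.21 to 7.66 CPM, with COL1A2 and DCN at the floor in every library, PDGFRB rising from 0.411 to 2.83 CPM and COL1A1 falling from 5.38 to 4.33 CPM (edgeR adjusted p = 2.99e-11 and 0.0169). Their part in the results was not tested. In bulk RNA, fewer cells that express a gene and less RNA per cell cannot be told apart.

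Start-site sequence was looked at first, since both steroid receptors and FOXA1 act on DNA. RefSeq windows on GRCh38.p14, from 250 bases before to 50 after each start, were found for 5 of the 9 symbols (FKBP5, HPGD, DHRS2, ACSM1 and GGT1), 8 windows in all. They were searched on both strands. The androgen response element was read as AGAACA facing another copy on the other strand across a spacer of 3 bases, and AGAACA was also searched alone. The forkhead forms were TGTTTAC (in 3.42% of all windows), TGTTTGC (in 3.89%), TATTTAC (in 2.67%) and TATTTGC (in 2.97%). The whole element was in 0 of the 8 windows and in 1 of 35116 windows over all genes (0.00285%). AGAACA alone was in 1 of the 8, against 14.8% of all windows, and a forkhead form was in 2 of the 8, against 12.1%. FKBP5 held both kinds within 30 bases of its upstream start (chr6:35728554-35728583, minus strand), and HPGD held a forkhead form just after one of its starts (chr4:174522873-174522902, minus strand). These stretches are shown because they hold every match to AGAACA or a forkhead form found in the members' windows, with the matches in capitals.
FKBP5: AGAACAaactcctacctcTGTTTGCaacta
HPGD: gtttgctttatTGTTTGCttgttttgttcc
In FKBP5, AGAACA began at base 1 of the transcript and the forkhead form at base 19, and the forkhead form of HPGD began at base 3. A match is a run of letters and does not show binding. The whole element is too rare over all genes for 0 of 8 to set the members apart. Lack of a match does not show lack of response, since only these windows were searched, for 5 of the 9 symbols.

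DHRS2, the most abundant member, had none of these letters in its window. Its 250 bases before the start (chr14:23629865-23630114, plus strand) are shown because they precede the start of the member with the largest drop in CPM, with the only searched motif found there, a TATA box (TATAAA, searched on the gene's strand, in 7.33% of all windows), in capitals. It began 29 bases before the start.
DHRS2: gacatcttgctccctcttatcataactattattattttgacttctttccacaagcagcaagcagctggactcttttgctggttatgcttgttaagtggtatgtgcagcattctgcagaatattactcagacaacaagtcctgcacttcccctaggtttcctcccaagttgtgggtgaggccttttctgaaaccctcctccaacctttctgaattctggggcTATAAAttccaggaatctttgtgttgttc

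Steroid receptors that could act on these genes differed between the groups. NR3C1 had between 889 and 1054 counts in control and between 2025 and 2434 in knockdown, or 45.1 ± 2.35 and 99.2 ± 3.24 CPM (SD, n = 4 each; log2 change 1.14, SE 0.0444, adjusted p = 8.41e-18 from edgeR's quasi-likelihood test). The mineralocorticoid receptor gene NR3C2, from the same subfamily, rose from 3.28 ± 0.363 to 5.56 ± 0.409 CPM (log2 change 0.76, edgeR adjusted p = 2.36e-06). The progesterone receptor gene PGR had 0 or 1 read per control and 2 to 4 per knockdown library, which is at the floor or just above it. Over all tested genes, edgeR called 37.7% lower and 39.4% higher. Of the 6 steroid receptors listed 4 were tested, 1 lower and 2 higher, with a median log2 change of 0.75. The lower one was ESR1, the oestrogen receptor gene, named after its value was seen. It had 28 to 35 counts in control and 0 to 2 in knockdown (control 30.4 times knockdown by summed counts, 95% counting interval 11.6 to 113).

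**Figure D1:**
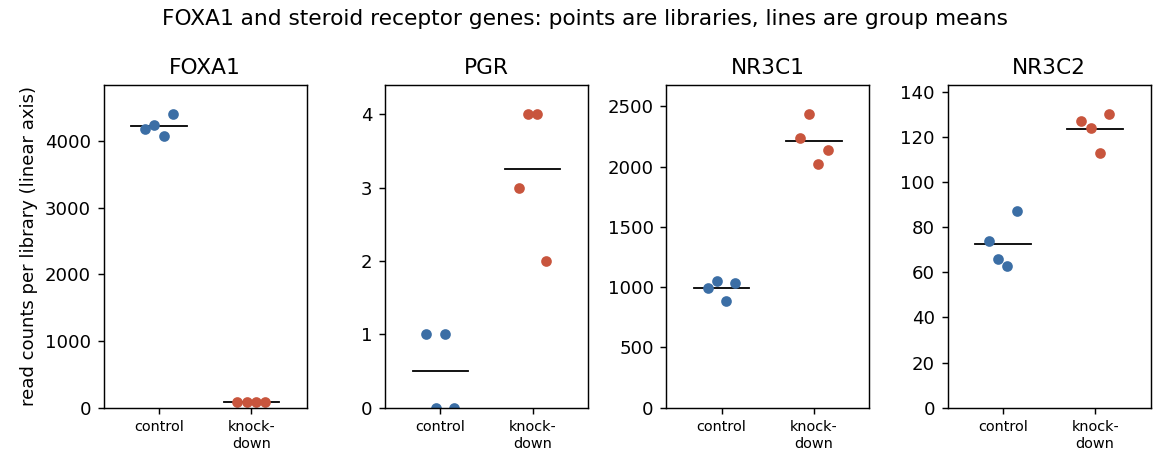
Read counts per library (y axis, linear) of FOXA1, PGR, NR3C1 and NR3C2 in control (blue) and FOXA1 knockdown (red), with lines at group means. NR3C1 is between 889 and 1054 counts in control and between 2025 and 2434 in knockdown.

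The 2 best known androgen targets among the members behaved differently. FKBP5 encodes an immunophilin that works with HSP90 and lowers the hormone affinity of the glucocorticoid receptor. The gene lies on chromosome 6, 35573585 to 35728583, minus strand (GENCODE 29 on GRCh38). Its level was 33.9, 31.5, 32.2 and 31.2 CPM in the controls (replicates 1 to 4, in that order here and in all lists of 4 values) and 33.1, 32.4, 33.5 and 32.6 CPM in knockdown. The groups overlapped, and all knockdown libraries lay within the range of the controls. The log2 change was 0.0315 (SE 0.0286, edgeR adjusted p = 0.558; exact two-sided permutation p = 0.343). This result moved with the scaling: with library size only it was 0.12 and past the threshold (edgeR adjusted p = 0.0304). That setting also moved the median log2 change of all tested genes by 0.0835. With RLE and upper-quartile scaling FKBP5 was not called (edgeR adjusted p = 0.595 and 0.0876). The 50 tested genes nearest to FKBP5 had a median log2 change of 0.25, and with that regional shift taken out FKBP5 had a log2 change of -0.22 (edgeR adjusted p = 0.00026). Over all 19 alternatives the adjusted p ranged from 0.00026 to 0.877.

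TMPRSS2 encodes a serine protease anchored in the cell membrane (chromosome 21, 41464551 to 41531116, minus strand). Its level was 43.1, 42.0, 41.8 and 41.4 CPM in the controls and 16.9, 18.2, 18.03 and 19.8 CPM in knockdown. No knockdown library came near a control. It fell to 43.3% of the control level (log2 change -1.21, SE 0.0483, edgeR adjusted p = 1.12e-16; exact permutation p = 0.0286, the smallest that 4 against 4 can give). The members called are read against the whole table, where edgeR called 77.1% of 16430 tested genes at an adjusted p under 0.05, 37.7% lower and 39.4% higher.

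**Figure D2:**
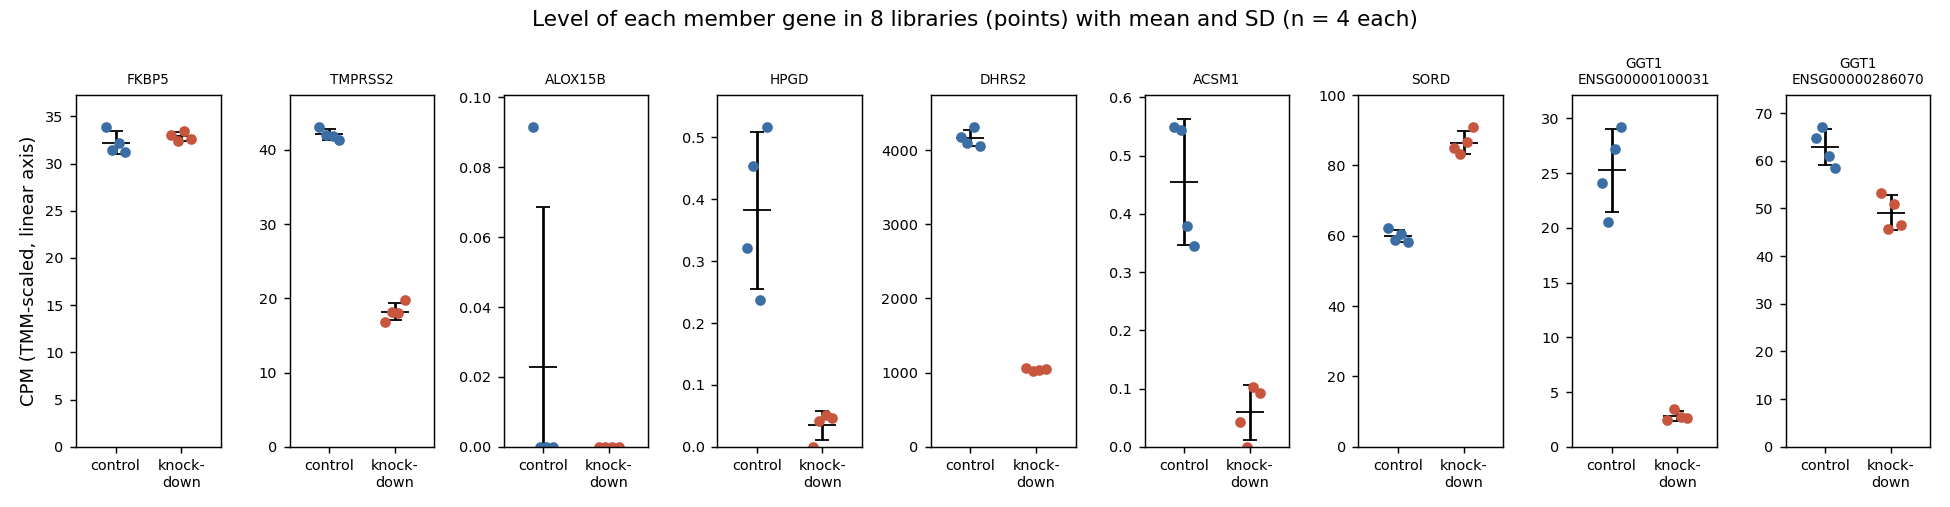
CPM (y axis, linear and separate for each panel, from 0) of the 9 member rows in each library, with group mean and SD (n = 4 each). FKBP5 overlaps between groups near 32 CPM, SORD is higher in knockdown, and DHRS2 goes from a mean of 4162 to one of 1041 CPM.

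The members that handle fatty acids and prostaglandins were close to the floor. HPGD encodes the hydroxyprostaglandin dehydrogenase that inactivates prostaglandins (chromosome 4, 174490177 to 174523154, minus strand). It had 7, 10, 5 and 12 reads in the controls and 0, 1, 1 and 1 in knockdown. The groups did not overlap. By summed counts control was 11.5 times knockdown (95% counting interval 3.61 to 58.4; exact permutation p = 0.0286).

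ACSM1 encodes a mitochondrial enzyme that joins medium-chain fatty acids to coenzyme A (chromosome 16, 20623237 to 20698890, minus strand). It had 12, 12, 8 and 8 counts in control and 1, 0, 2 and 2 in knockdown, again with no overlap. Control was 8.10 times knockdown by summed counts (95% counting interval 3.20 to 26.3; exact permutation p = 0.0286). ACSM1 lies within the span of ACSM3 on the opposite strand, with 0 bases of shared exon, and ACSM3 had the opposite direction, from 3.14 ± 0.405 to 6.28 ± 0.443 CPM (SD, n = 4 each; log2 change 0.996, edgeR adjusted p = 2.57e-08). Neither HPGD nor ACSM1 passed the filter on low counts. With no filter, edgeR gave them log2 changes of -3.31 and -2.89 with adjusted p values of 3.8e-06 and 3.17e-06. That fit called 15028 of 30434 genes. Its p values cannot be set beside those of the filtered fit: TMPRSS2 had an edgeR adjusted p of 1.45e-98 without the filter and 1.12e-16 with it.

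ALOX15B encodes a lipoxygenase that oxidises arachidonic acid (chromosome 17, 8039017 to 8049134, plus strand). It had 2 counts in control replicate 1 and 0 in the other 7 libraries. Both groups were at the floor, so no fold is given, and a difference was not detectable at this depth.

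DHRS2 carried most of the members' reads. It encodes a short-chain dehydrogenase/reductase that reduces carbonyl compounds (chromosome 14, 23630115 to 23645639, plus strand). Its counts were 91138, 90307, 90840 and 94247 in the controls and 24980, 24803, 20412 and 22650 in knockdown. All 4 knockdown libraries were far below every control. In CPM it fell from 4162 ± 111 to 1041 ± 19.2 (SD, n = 4 each), which left 25.02% (log2 change -1.999, SE 0.0233, edgeR adjusted p = 7.14e-26; exact permutation p = 0.0286). Its part of all the counts in a library went from 0.404% ± 0.00901 to 0.107% ± 0.0013 (SD, n = 4 each).

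Levels of different genes can be set side by side only per length, here as CPM per kilobase of exon in GENCODE 29. DHRS2 stood at 551 ± 14.7 in control and 138 ± 2.54 in knockdown on this scale (SD, n = 4 each). Its rank on this scale, among the 13278 protein-coding genes tested, moved from 50 to 238. SORD, TMPRSS2, FKBP5, HPGD and ACSM1 were far below it. In control the order was SORD at 9.73 ± 0.296, TMPRSS2 at 6.88 ± 0.12 and FKBP5 at 3.03 ± 0.114 CPM per kilobase. Each pair of neighbours in this order differed by more than the sum of their SDs. HPGD, at 0.0691 ± 0.0229, and ACSM1, at 0.158 ± 0.0375 CPM per kilobase, were lower still (SD, n = 4 each). GGT1 was not placed in this order, because ENSG00000100031, the entry with a length (5.70 ± 0.854 CPM per kilobase, SD, n = 4), held at most 33.3% of its counts in a control library.

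SORD was the member that rose. It encodes sorbitol dehydrogenase, which turns sorbitol into fructose in the polyol pathway (chromosome 15, 45023104 to 45077185, plus strand). Its level was 62.1, 58.7, 60.6 and 58.1 CPM in the controls and 85.0, 83.2, 86.8 and 91.0 CPM in knockdown. Each knockdown library was above each control. The mean went from 59.9 ± 1.82 to 86.5 ± 3.31 CPM (SD, n = 4 each), or 1.44 times the control level (log2 change 0.53, SE 0.035, edgeR adjusted p = 1.8e-11; exact permutation p = 0.0286). The 50 tested genes nearest to SORD had a median log2 change of -0.37, and with that shift taken out SORD had one of 0.90. Of the 31-base words in the transcripts of SORD, 33.8% also occur in its pseudogene SORD2P, so reads can be split between them. SORD2P had the same direction, from 7.45 ± 1.06 to 11.3 ± 1.22 CPM (SD, n = 4 each; log2 change 0.60, edgeR adjusted p = 8.7e-06).

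GGT1 encodes the gamma-glutamyltransferase that opens the breakdown of glutathione outside the cell (chromosome 22, 24583750 to 24629005, plus strand). Its reads were split between ENSG00000100031 and ENSG00000286070, and the split differed between the groups. Under ENSG00000100031 the level was 24.1, 20.5, 27.2 and 29.2 CPM in the controls and 2.47, 3.48, 2.70 and 2.64 CPM in knockdown, a log2 change of -3.15 (SE 0.155, edgeR adjusted p = 5.62e-11). Under ENSG00000286070 it was 64.9, 67.1, 60.9 and 58.6 CPM and then 53.3, 45.8, 50.98 and 46.5 CPM, a log2 change of -0.36 (SE 0.0691, edgeR adjusted p = 2.21e-06). Neither entry overlapped between the groups (exact permutation p = 0.0286 for each).

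The first entry held between 23.4% and 33.3% of the GGT1 counts of a control library and between 4.42% and 7.07% of those of a knockdown library. Summing both entries gave 89.0, 87.7, 88.1 and 87.8 CPM in control and 55.8, 49.2, 53.7 and 49.1 CPM in knockdown. The summed controls were closer together than either entry alone, with an SD of 0.617 CPM against 3.79 and 3.86 CPM. Summed, GGT1 fell to 59.0% of the control level (log2 change -0.76, edgeR adjusted p = 4.11e-14; exact permutation p = 0.0286). So the direction was the same under either entry and their sum, and the size was not. ENSG00000286070 is paired with GGT1 by the symbol column of the table, while the Ensembl name table gives it no symbol and GENCODE 29 does not list it. Of the 31-base words of GGT1, 45.9% also occur in transcripts of other genes. GGT2 (22.9%, GGT2P in the table) and GGT3P (21.8%) shared the most, and a word can count for both. GGT1 also shares 306 bases of exon with SNRPD3 on the same strand, and LRRC75B lies within its span on the other strand with no shared exon. SNRPD3 went from 134 to 120 CPM. LRRC75B had 191 to 234 counts per control library and 0 in every knockdown library. Their part in the GGT1 values was not tested.

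**Figure D3:**
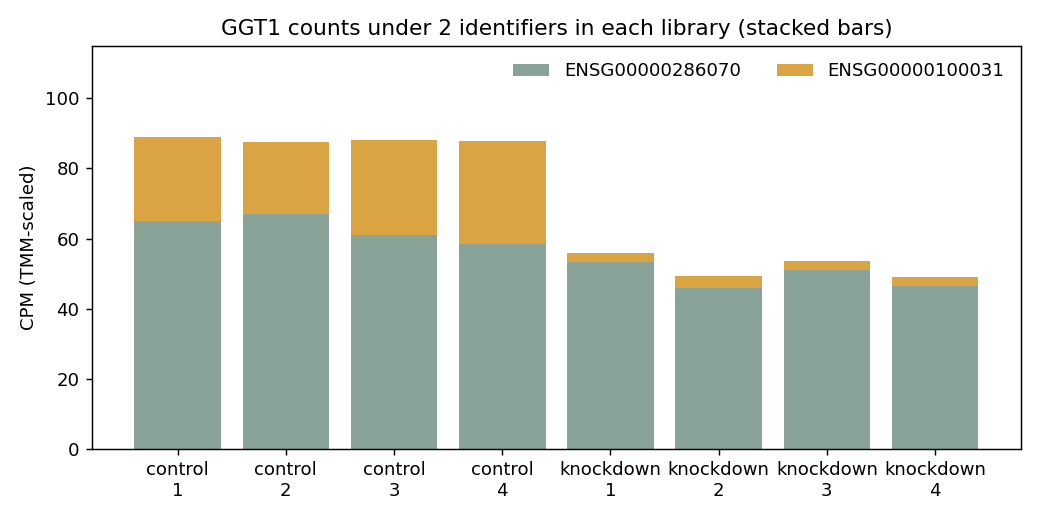
TMM-scaled CPM of GGT1 (y axis, linear from 0) in each library, stacked by identifier. The summed bars stand between 87.7 and 89.0 CPM in control and between 49.1 and 55.8 CPM in knockdown, and the part under ENSG00000100031 shrinks from over 20 CPM to under 4 CPM.

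UGT2B28, an enzyme that inactivates androgens by glucuronidation, was not analysed here. Of its relatives with a row, UGT2B4 and UGT2B11 had at most 1 count in any library, so neither was above the floor.

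Across the members, then, 6 rows of 5 symbols passed the filter and 3 symbols (HPGD, ACSM1 and ALOX15B) did not. Of the 6 rows, TMPRSS2, DHRS2 and both GGT1 rows were lower and SORD was higher, and FKBP5 was not called. These 5 calls of 6 stand beside 77.1% of all tested genes, and the 4 lower calls beside 37.7%. The same 5 rows had groups with no overlap in CPM, against 72.0% of all tested genes. Calls of at least 2-fold lower, which DHRS2, TMPRSS2 and GGT1 (ENSG00000100031) reached, made up 13.4% of all tested genes. Summed over both entries, GGT1 kept 59.0% of the control level (log2 change -0.76) and did not reach 2-fold.

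**Figure D4:**
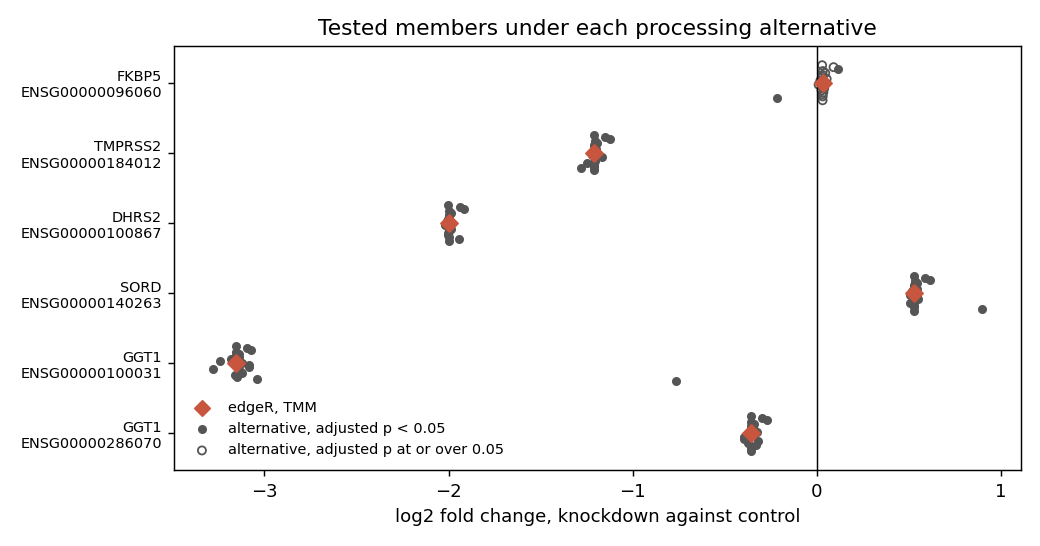
Log2 fold change (x axis, knockdown against control) of the 6 tested member rows in the edgeR fit (diamonds) and under each processing alternative (circles, filled where the adjusted p is under 0.05). FKBP5 lies on both sides of 0, and the GGT1 circle at -0.76 is the sum of both entries.

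The HSP90 machinery that holds steroid receptors, and to which FKBP5 belongs, was measured in 12 listed genes, all tested. Of these, 5 were lower and 4 higher, beside 37.7% and 39.4% of all tested genes. Their median log2 change was -0.019, beside 0.019 over all tested genes. HSP90AB1 rose from 1453 ± 16.8 to 2214 ± 46.5 CPM and PTGES3, the p23 co-chaperone, from 430.7 ± 16.5 to 611 ± 23.5 CPM (SD, n = 4 each). BAG1, a co-chaperone that binds HSP70, fell from 135.2 ± 3.11 to 41.4 ± 1.66 CPM, a log2 change of -1.71. PPID, an immunophilin like FKBP5, fell by 0.29 on the log2 scale, and with the regional shift taken out it had a log2 change of 0.075 (edgeR adjusted p = 0.192). FKBP4, the closest relative of FKBP5 in receptor complexes, had 536 and 522 CPM and was not called (log2 change -0.0383, edgeR adjusted p = 0.282); it lies outside the rule for named genes.

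Of 26 other listed genes that androgen induces in prostate cells, 21 entries were tested (HERC3 under 2 identifiers). Of these 13 were lower and 6 higher, with a median of -0.82, beside 37.7% lower, 39.4% higher and 0.019 over all tested genes. The strongest falls were in SPDEF, an ETS factor of luminal cells, from 200.3 ± 17.3 to 0.398 ± 0.189 CPM, and PMEPA1, a brake on TGF-beta signalling, from 423.3 ± 7.69 to 16.5 ± 0.644 CPM (SD, n = 4 each; log2 changes -8.94 and -4.68). Among the rises, the transporter gene ABCC4 went from 3.74 ± 0.171 to 18.7 ± 0.236 CPM (SD, n = 4 each; log2 change 2.32). Of the 12 other apocrine markers, 10 were tested, 9 of them lower and 1 higher against those same shares, with a median of -5.50. SERHL2 fell by 7.36 on the log2 scale, and SCGB2A2 (mammaglobin) went from 226 to 268 counts per control library to 0 in all knockdown libraries, which is at least 84.3-fold lower against a floor of 3 counts per library. CRAT, the call against that list (log2 change 0.20, edgeR adjusted p = 0.0156), was lost without control replicate 2 and without control replicate 4, which left 0 higher.

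Of 16 listed membrane serine proteases related to TMPRSS2 and their inhibitors, 7 were tested. Calls were 5 lower and 1 higher, beside 37.7% and 39.4% of all tested genes, with a list median of -1.11. The lower calls were the proteases TMPRSS4, TMPRSS13 and ST14 and the inhibitors SPINT1 and SPINT2. TMPRSS4 went from 39.4 ± 1.43 to 0.874 ± 0.0779 CPM and TMPRSS13 from 75.0 ± 3.87 to 8.67 ± 1.07 CPM (SD, n = 4 each; log2 changes -5.48 and -3.11). The higher call, TMPRSS3, had a mean below 50 counts and is absent under the stricter filter on low counts.

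In the pathway around HPGD and ALOX15B, 25 genes were listed and 15 entries tested (PTGR2 under 2 identifiers). Here 8 were lower and 6 higher, where 37.7% of all tested genes were lower and 39.4% higher. The list median was -0.18. PTGS1, the cyclooxygenase that starts prostaglandin synthesis, fell from 27.9 ± 0.76 to 0.177 ± 0.0369 CPM, a log2 change of -7.23. PTGES, the synthase that makes prostaglandin E, rose from 77.5 ± 2.71 to 249.9 ± 7.15 CPM, one of 1.69. PTGR1, which like HPGD inactivates prostaglandins, fell from 28.1 ± 1.22 to 7.08 ± 0.298 CPM (SD, n = 4 each for all 3; log2 change -1.99), and LTC4S, a leukotriene synthase, rose from 1.53 ± 0.244 to 3.15 ± 0.469 CPM. The 3 lipoxygenases tested, named after their values were seen, did not move together. ALOX5 had 1 to 2 counts in control and 77 to 110 in knockdown (knockdown 61.4 times control by summed counts, 95% counting interval 28.0 to 169). ALOX15 had 18 to 35 and then 5 to 8 counts, and ALOXE3 had 13 to 24 and then 7 to 10 (log2 changes -2.17 and -1.05, edgeR adjusted p = 4.04e-07 and 0.00227).

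Most genes related to DHRS2 were called lower too, though all but DHRS3 fell by less than DHRS2 itself. Of 16 listed, 13 were tested, and edgeR called 11 lower and 0 higher (also 0 higher at an unadjusted p under 0.05, and 0 by DESeq2 and by limma voom), with a median of -0.52. The count of higher calls was 1 without control replicate 3. Over all tested genes 37.7% were called lower and 39.4% higher, with a median of 0.019. DHRS3, a retinaldehyde reductase, fell most, from 85.2 ± 3.6 to 9.68 ± 0.329 CPM, then DHRS7, from 43.6 ± 2.43 to 21.3 ± 0.517 CPM (SD, n = 4 each; log2 changes -3.14 and -1.03).

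Among 19 listed genes, the acyl-CoA synthetases related to ACSM1 and the glycine acyltransferases, 12 were tested. Of these 8 were lower and 4 higher, against 37.7% and 39.4% over all tested genes, with a median of -1.30. ACSF2 went from 381 to 397 counts per library to 1 to 3, and ACSS3 from 34.8 ± 3.37 to 1.98 ± 0.367 CPM (SD, n = 4 each; log2 change -4.12). In the other direction ACSL4, which prefers arachidonic acid, went from 0.192 ± 0.0379 to 34.4 ± 1.19 CPM and ACSF3, which acts on malonate, from 2.27 ± 0.483 to 12.0 ± 1.49 CPM (SD, n = 4 each; log2 changes 7.44 and 2.41).

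Of 10 polyol and fructose genes around SORD, 9 were tested, 3 lower and 5 higher, with a median of 0.25. The shares over all tested genes were 37.7% lower and 39.4% higher. AKR1B10, an aldo-keto reductase, rose from 0.784 ± 0.153 to 4.00 ± 0.257 CPM, and KHK, the kinase that takes up fructose after SORD, fell from 9.30 ± 0.94 to 2.30 ± 0.593 CPM (SD, n = 4 each; log2 changes 2.35 and -2.03). TKFC, further down the same path, fell by 0.51 on the log2 scale. AKR1B1, the aldose reductase that makes the sorbitol SORD uses, had groups that overlapped in CPM (log2 change 0.38, edgeR adjusted p = 0.0155); it lies outside the rule for named genes.

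In the gamma-glutamyl cycle, 13 of 19 listed genes were tested, with a median of -0.99. Calls were 10 lower and 3 higher, beside 37.7% and 39.4% of all tested genes. The largest falls by the naming rule were in relatives of GGT1: GGT6 went from 24.9 ± 1.09 to 0.416 ± 0.14 CPM and GGT5 from 10.2 ± 0.882 to 3.68 ± 0.283 CPM (SD, n = 4 each; log2 changes -5.89 and -1.47). Outside that rule, with means below 50 counts, OPLAH and CHAC1 had log2 changes of -6.27 and -1.83. OPLAH had 43 to 51 counts per control library and 0 to 1 per knockdown library. The 3 rises were in GCLM, GSR and GSS, which make or reduce glutathione. GCLC, the catalytic partner of GCLM, fell by 0.22 on the log2 scale. GCLM had a log2 change of 0.69 and GSR one of 0.22, which was not past the threshold with the regional shift taken out (0.069, edgeR adjusted p = 0.103). GGT2P, which shares sequence with GGT1, went from 14 to 21 counts to 0 to 4.

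Steroid metabolism, the pathway of UGT2B28, held calls in both directions. Of 34 listed genes 14 were tested, 6 lower and 6 higher, with a median of -0.045. Over all tested genes 37.7% were lower and 39.4% higher. HSD17B1, which reduces oestrone, fell from 28.1 ± 2.93 to 2.51 ± 0.0392 CPM, and SULT2B1, a steroid sulfotransferase, from 10.9 ± 0.363 to 1.83 ± 0.411 CPM (SD, n = 4 each; log2 changes -3.48 and -2.59). HSD3B1, which makes androgen precursors, went from 3 to 6 counts per library to between 262 and 327 (0.183 ± 0.0702 and 13.2 ± 0.425 CPM). HSD17B11, which oxidises steroids, rose from 0.803 ± 0.136 to 22.0 ± 0.738 CPM (SD, n = 4 each; log2 changes 6.14 and 4.76).

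**Figure D5:**
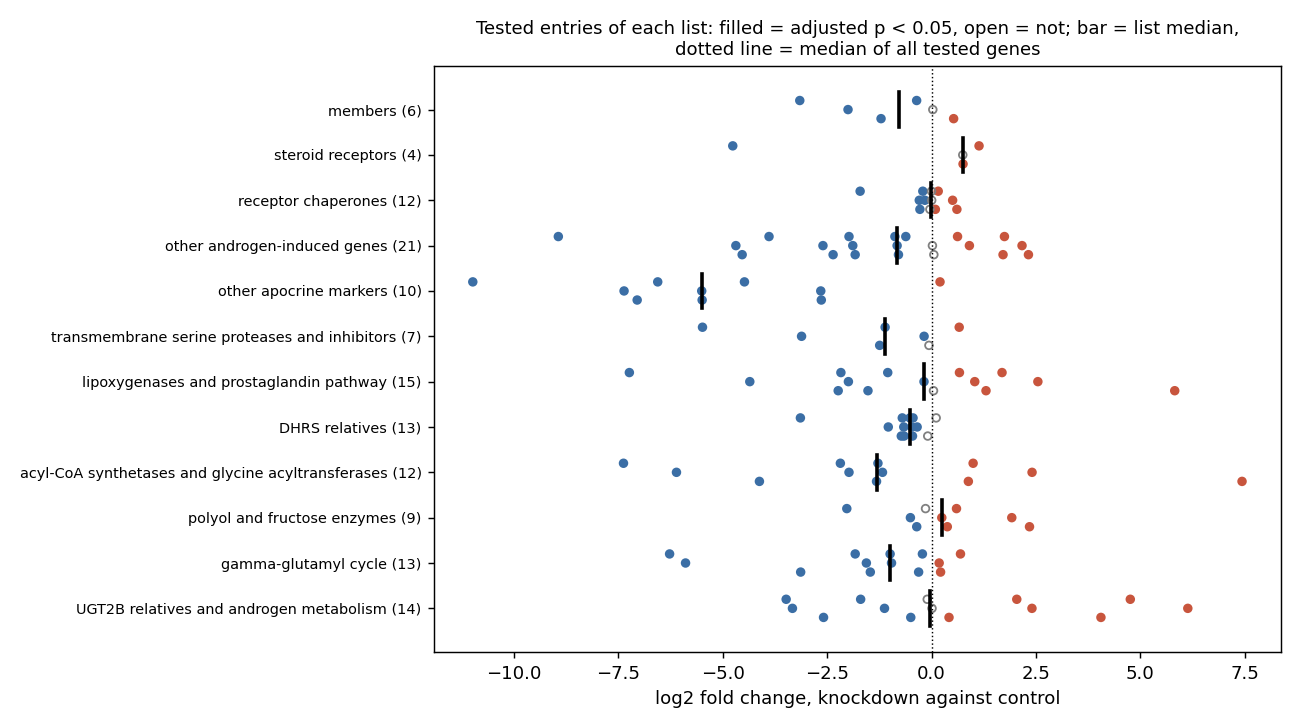
Log2 fold change (x axis, knockdown against control) of every tested entry of the members and of the 11 lists (rows, with the number of entries), blue for lower and red for higher calls, open circles for entries not called, bars for list medians. The apocrine markers sit furthest to the left, with a median of -5.50, and the dotted line marks the median of all tested genes, 0.019.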

How the data were processed

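The members and lists were chosen with earlier results of these data known. RNA was extracted with Trizol and sequenced as paired 101 bp reads, per the labels' protocols. The authors deposited whole-number counts per gene for 8 libraries. The submitters' processing notes name hg38, FastQC, Salmon 1.9 and DESeq2 3.16 without roles; annotation, strand setting and rounding are not given in the sources used here. Estimated counts of transcripts that share sequence can shift between genes.

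Genes were kept by filterByExpr (minimum 10 counts, total 15), which left 16430 of 30434. Libraries were scaled by TMM (0.965 to 1.04), and knockdown was compared with control by edgeR 4.0.16's quasi-likelihood test with robust estimation in R 4.3.3, Benjamini-Hochberg adjusted over all tested genes, threshold 0.05. Standard errors come from log2 CPM with 0.5 added to each count. Single genes were tested by exact two-sided permutation over 70 divisions, unadjusted. Summed-count ratios have exact 95% intervals; these and floors cover counting error only. Levels use GENCODE 29 exon lengths, and 96.5% of identifiers matched it. Replicate numbers did not pair samples (correlations of same-numbered deviations from -0.0307 to 0.0563).

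Named genes are FOXA1, NR3C1, PGR, the members and, per list, up to 2 rises and 2 falls whose mean count reached 50 and whose groups did not overlap; some of these are not reported here. On counts simulated with the same dispersion for every gene, 200 genes were changed 2-fold before the filter, which left 16117. Of those 200, 185 (92.5%) were called correctly, with 9 false calls. Far fewer genes changed there than the 12675 called in the data, so these rates need not hold for the data. Alternatives were other scalings and filters, DESeq2 1.42.0, limma 3.58.1 voom, no robust estimation, a replicate block, summed identifiers, leaving out each library, and an offset for the median of the 50 nearest tested genes.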

Additional observations from a re-analysis of the deposited data

Results flagged for a closer look

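In each group of 4 libraries, the gap between the most extreme library and its nearest neighbour was compared with the group's range, for members and named genes. Of 86 groups, 6 exceeded the 95% critical value of Dixon's ratio, where about 1 in 20 (4.3) is what chance gives. No member was among them. In control, HSP90AB1 was high in replicate 2 (1478 CPM against 1444 to 1446) and PPID was low in replicate 3 (45.3 CPM against 52.1 to 52.9). In knockdown, SPDEF was high in replicate 1 (0.680 CPM against 0.278 to 0.328), HSD3B1 was low in replicate 1 (12.5 CPM against 13.3 to 13.4), PTGES was high in replicate 4 (260.6 CPM against 246.1 to 246.8), and SORD2P, the pseudogene that shares sequence with SORD, was low in replicate 4 (9.49 CPM against 11.7 to 12.0). No cause was tested.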

How the results depend on the processing

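TMPRSS2, DHRS2, SORD and both GGT1 entries kept their direction and call under every alternative run. FKBP5 did not: it was called higher with library size only (0.12), so that 2 members were higher, and called lower with the regional shift removed (-0.22); ENSG00000286070 has no position and took no offset. The cause was not tested. Scalings moved the median of all genes by at most 0.0835. The replicate block left 12453 genes called against 12675. As without it, 4 member rows (GGT1 under both entries) were lower and 1 higher, and no call of a member changed.

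List counts moved as follows. With no filter, 2 steroid receptors were lower and 2 membrane proteases higher, since more genes were tested. With a mean of at least 50 counts fewer were tested, which left 0 steroid receptors lower, 0 membrane proteases higher, 3 prostaglandin genes lower and 3 higher, and 6 gamma-glutamyl cycle genes lower. With the regional shift removed, 3 chaperones were lower and 1 DHRS relative higher; 1 DHRS relative was also higher with library size only and with upper-quartile scaling. Leaving out single libraries gave 1 to 2 steroid receptors lower (2 without control replicate 2 or any knockdown replicate, where more of the list passed the filter), 0 to 1 apocrine markers higher and 0 to 1 DHRS relatives higher. PPID reversed with the regional shift removed (0.0748). At this depth, genes at 3 counts or fewer, ALOX15B among them, could not be compared.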
